A study of Rattus norvegicus with 47 samples.

Results

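The genes described are rat Cyp4 cytochrome P450 genes, the fatty acid omega-hydroxylases Cyp4a1, Cyp4a2, Cyp4a3, Cyp4a8, Cyp4b1, Cyp4f1, Cyp4f4 and Cyp4v3. They were chosen by name, as probe sets to which the array's annotation gives one of these symbols and no other. Of the 8 genes, 7 had such a probe set, among 14217 named genes on the array. Cyp4a2 had none, since its only probe set matches Cyp4a3 as well. That shared probe set is given beside the 7 genes and is not counted with them. Cyp4a8 and Cyp4v3 had a second probe set each. In these cases the one with the higher mean over all arrays stands for the gene and the other is given beside it.

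Cyp4 enzymes put a hydroxyl group on the terminal carbon of fatty acids. This is the first step of omega-oxidation, after which alcohol and aldehyde dehydrogenases make dicarboxylic acids that peroxisomes shorten. The liver runs this route mainly when fatty acids are abundant, as in fasting. The Cyp4a genes are textbook targets of the nuclear receptor PPARA, which binds DNA with RXR, the receptor that also partners the retinoic acid receptors. Cyp4f enzymes hydroxylate leukotrienes and other eicosanoids.

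Liver RNA from single female Sprague-Dawley rats of 8 weeks was hybridised to 47 single-colour Affymetrix arrays, in 3 experiments and 13 groups. Values are deposited log2 signals on a scale where each array's median is 0, and a difference of 1 is 2-fold. In the diet experiment the mothers ate a purified diet without vitamin A. From weaning the daughters ate that diet with added retinol. Deficient rats (5 arrays) received 0 mg per kg of diet, marginal rats (7) 0.4 mg, adequate rats (6) 4 mg and supplemented rats (2) 100 mg. In the retinoic acid (RA) time course all rats were vitamin A-deficient, raised on the same diet with no retinol. The vehicle rats (3 arrays) count as 0 h. The treated rats were given all-trans-RA, about 100 µg each, and liver was taken 3 h (3 arrays), 6 h (3), 10 h (4) or 16 h (3) later. In the intravenous experiment all rats ate a stock diet, were primed with oil containing 5% ethanol, and had their food removed. After 16 h they were lightly anaesthetised with isoflurane. The vehicle rats (2 arrays) count as 0 min. The treated rats had albumin-bound all-trans-RA injected into an iliac vein, about 25 µg each or 10 µg per 100 g of body weight, and liver was taken 30, 60 or 90 min later (3 arrays each). Sample titles name the controls of both RA experiments untreated, but the treatment text names a vehicle. No vehicle rat was killed at the later times, so time since dosing and RA cannot be told apart.

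The members lie at 3 places in the RefSeq annotation of the rat genome build GRCr8. Cyp4a8, Cyp4a2, Cyp4a3, Cyp4a1 and Cyp4b1 follow each other in this order on chromosome 5, with the copy Cyp4a2l1 between Cyp4a2 and Cyp4a3. Cyp4f1 and Cyp4f4 lie on chromosome 7, with Cyp4f1 next to Cyp4f6, and Cyp4v3 lies on chromosome 16. RefSeq promoter sequences of GRCr8, each of 300 bases (250 before the gene start and 50 after it), were at hand for 5 of the 8 genes. They are shown for Cyp4a2 and Cyp4a3, the near-identical pair behind the shared probe set, and for Cyp4f1, which had the smallest p-value of the members after RA. Capitals mark AGGTCA, the hexamer that PPAR, RXR and RA receptors recognise, and all 3 sequences read 5′ to 3′ on the minus strand.
Cyp4a2 promoter (chr5:134170859-134171158, minus strand): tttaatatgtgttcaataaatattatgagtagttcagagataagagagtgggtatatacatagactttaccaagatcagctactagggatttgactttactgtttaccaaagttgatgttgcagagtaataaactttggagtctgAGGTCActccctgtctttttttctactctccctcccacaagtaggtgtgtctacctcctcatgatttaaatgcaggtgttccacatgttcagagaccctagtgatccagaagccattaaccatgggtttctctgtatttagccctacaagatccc
Cyp4a3 promoter (chr5:134352187-134352486, minus strand): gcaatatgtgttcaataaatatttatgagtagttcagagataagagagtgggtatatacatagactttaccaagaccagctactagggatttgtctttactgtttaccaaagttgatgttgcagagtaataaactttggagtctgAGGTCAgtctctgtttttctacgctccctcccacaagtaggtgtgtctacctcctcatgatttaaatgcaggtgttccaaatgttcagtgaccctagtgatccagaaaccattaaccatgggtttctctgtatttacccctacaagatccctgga
Cyp4f1 promoter (chr7:12672504-12672803, minus strand): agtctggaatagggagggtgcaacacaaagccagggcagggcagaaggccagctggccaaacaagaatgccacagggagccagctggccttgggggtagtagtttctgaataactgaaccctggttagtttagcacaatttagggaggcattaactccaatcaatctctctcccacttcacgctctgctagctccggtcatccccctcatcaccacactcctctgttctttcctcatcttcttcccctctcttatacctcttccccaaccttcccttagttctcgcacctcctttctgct
Between the Cyp4a2 and Cyp4a3 promoters 284 aligned bases were identical, 11 differed and 10 bases fell in gaps, an identity of 96.3% of aligned bases. The other pairs among the 5 promoters had 54.7% to 67.1%. Both hold the letters AGGTCA once, at position -105 from the gene start, and the Cyp4a8, Cyp4b1 and Cyp4f1 promoters do not hold them on either strand. Of 33469 rat promoters of this length, 16.2% hold AGGTCA on either strand. The direct repeats AGGTCANAGGTCA (in 0.0538% of promoters) and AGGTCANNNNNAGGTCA (in 0.00896%), each of which contains the hexamer, were in none of the 5.

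The probe sets of Cyp4a1, Cyp4a3, Cyp4f1, Cyp4f4 and Cyp4v3 had strong signals on all arrays, each at percentile 94 of its array or above. Cyp4b1, known as a lung enzyme that activates furan toxins, lay between percentiles 58.4 and 87.6. Cyp4a8, known from rat kidney, lay near or below the array median, between percentiles 10.2 and 71.2, and its second probe set reached down to the array floor on 1 array. The identity of the Cyp4a1 probe set is not settled. The platform table gives it the symbol and gene number of Cyp4a1, but the transcript record it cites is listed by RefSeq under the neighbouring gene Cyp4b1. It is called Cyp4a1 here, after the platform table, and Cyp4b1 has another probe set. In bulk liver RNA, fewer cells of a type and less RNA per cell cannot be told apart.

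**Figure D1:**
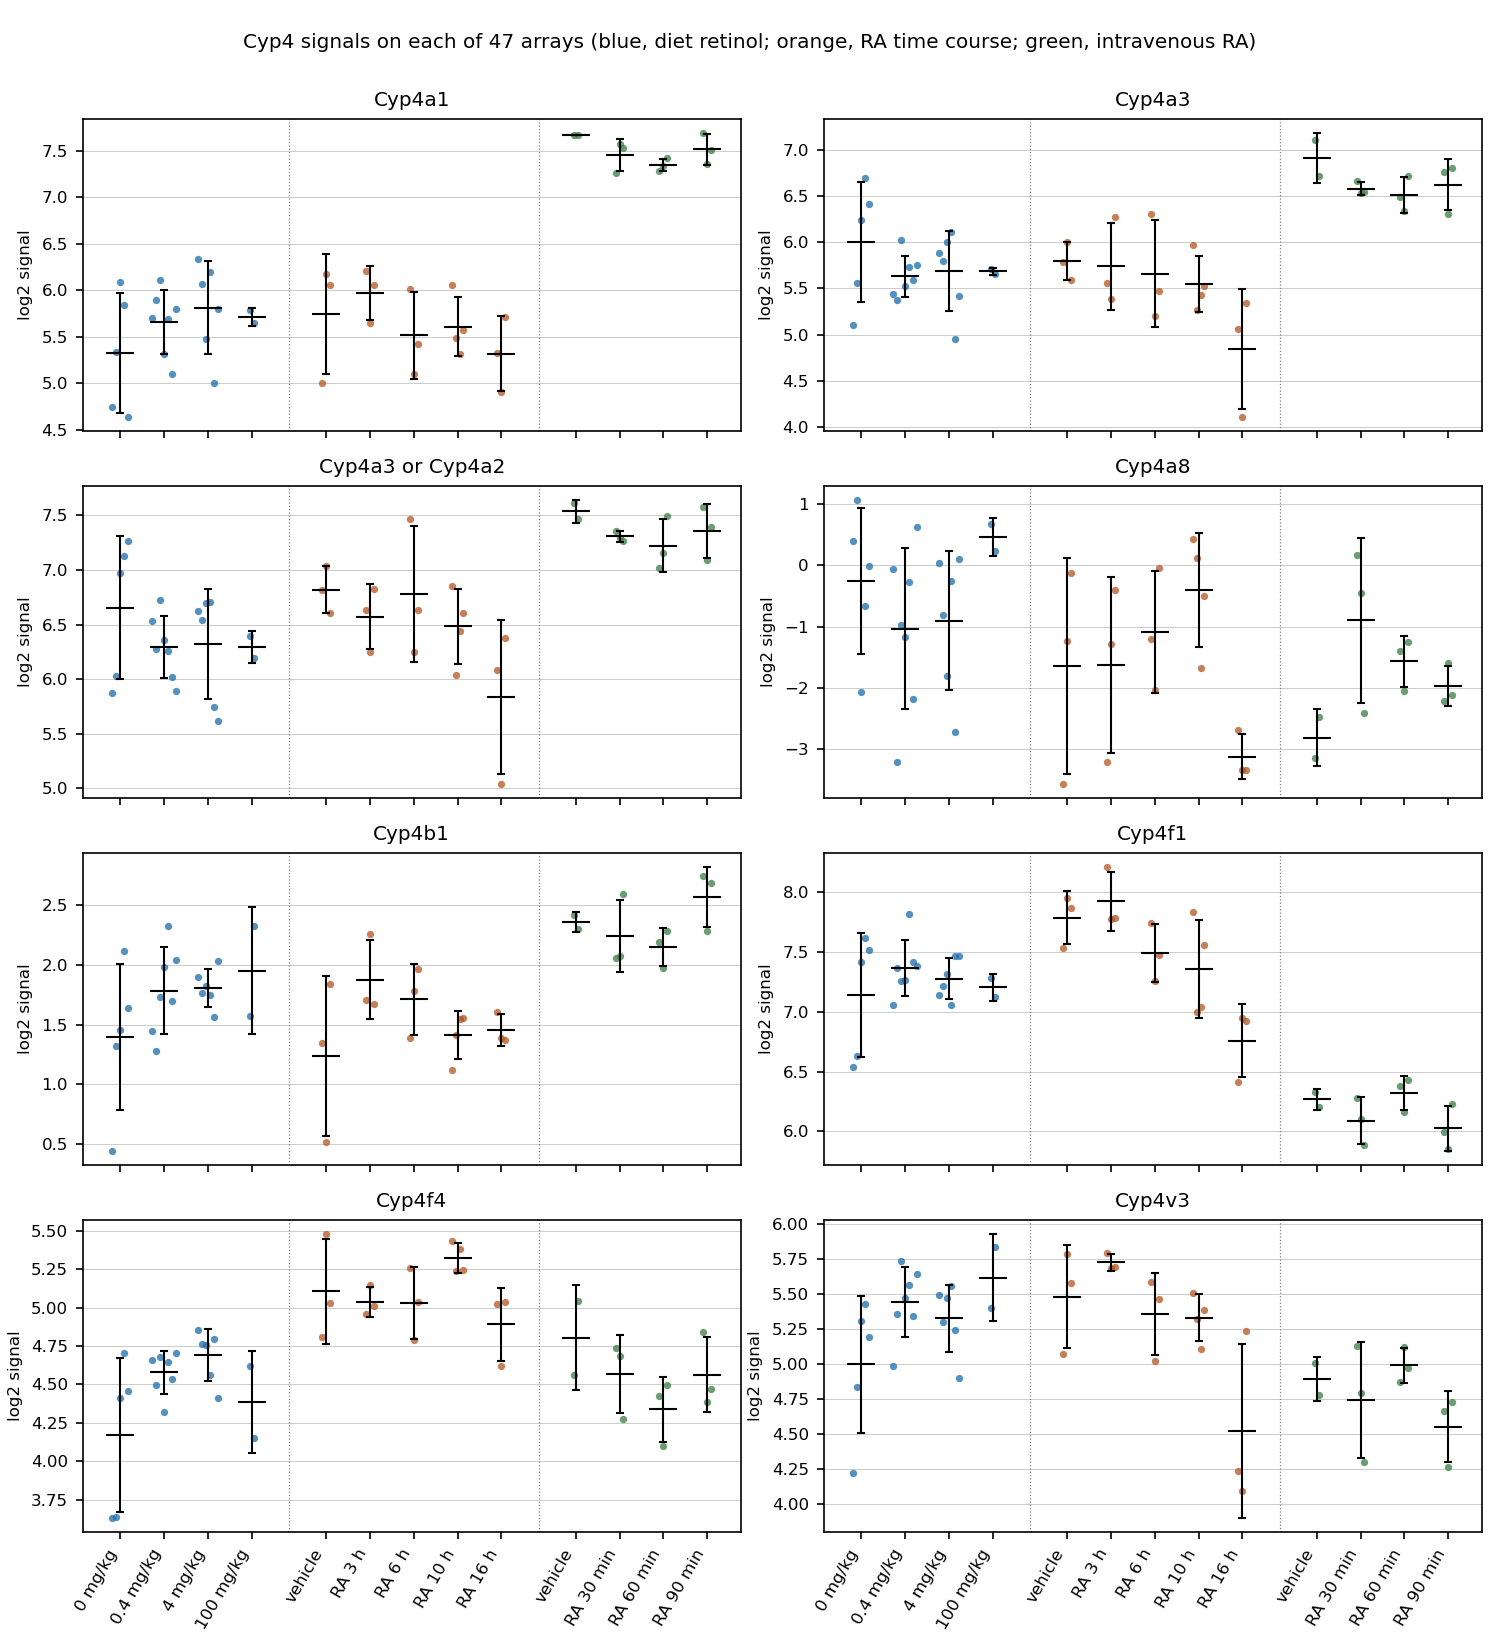
Signals of 7 Cyp4 genes and of the probe set shared by Cyp4a3 and Cyp4a2 on each of the 47 arrays (log2 signal, array median 0). Points are arrays, bars are group means with SD. The blue groups are the diets by retinol content, the orange groups the RA time course and the green groups the intravenous experiment. Cyp4a1 stands higher in all green groups, and every probe set shown except that of Cyp4b1 has its lowest orange mean at 16 h. The share of all probe sets with their lowest mean there was not counted, and their median change at 16 h was -0.392. Of the second probe sets, not shown, that of Cyp4a8 has its highest orange mean at 16 h (-0.31) and that of Cyp4v3 its lowest (-1.45).

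The mean correlation of an array with the others of its experiment was 0.783 to 0.855 in the diet experiment, 0.674 to 0.804 in the time course and 0.894 to 0.905 in the intravenous experiment. The 16 h replicates 1 and 2 stood apart, at 0.674 and 0.719, with every other time-course array at 0.762 or more. In the diet experiment deficient replicates 1, 2 and 5 and adequate replicate 5 were lowest, at 0.783 to 0.819. Diet arrays fell into 2 runs of database identifiers, with 12 arrays in the first and 8 in the second, and the run was a term in the fit. Cyp26a1, the RA-degrading enzyme that RA induces, was 1.94 ± 0.46 (SE) lower on log2 scale in deficient than in adequate livers (limma adjusted p = 0.0255), 8.67 ± 0.94 higher at 6 h than with vehicle (adjusted p = 9.63e-06) and 5.61 ± 0.56 higher at 90 min (adjusted p = 0.000149). All 10 hepatocyte markers, Alb among them, were above the floor on the arrays of all 4 groups compared below (16 h and vehicle, deficient and adequate).

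No Cyp4 gene passed the test between diets that differed in vitamin A. Deficient livers had lower mean signals of Cyp4a1 and Cyp4f4 and higher mean signals of Cyp4a3 than adequate livers, and none of these differences passed the test. With limma and Benjamini-Hochberg adjustment, 0 of 7 members were called between deficient and adequate livers at an adjusted p under 0.05, where 1.08% of 27595 probe sets were called, and 2 members had an unadjusted p under 0.05. Likewise 0 of 7 were called between marginal and adequate (0% of all called), supplemented and adequate (0.0109%), supplemented and deficient (0.42%) and marginal and deficient livers (1.69%). The trend over the 4 levels (0.359%) and the F test over the 4 diets (0.91%) also called 0 of 7. At an unadjusted p under 0.05 these 6 called 0 members, apart from 2 between marginal and deficient livers, Cyp4f4 and Cyp4v3.

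Among the Cyp4a genes, Cyp4a1, the classic peroxisome proliferator-induced omega-hydroxylase, had signals of 4.75, 5.33, 6.09, 5.84 and 4.64 in deficient livers, against 6.33, 6.07, 5.48, 6.19, 5.00 and 5.80 in adequate livers. The groups overlap, with deficient replicates 1 and 5 below every adequate liver. The fitted difference was -0.59 ± 0.24 (SE, 95% interval -1.07 to -0.11, limma adjusted p = 0.285). Marginal livers had 5.10 to 6.11 (median 5.70) and the 2 supplemented livers 5.78 and 5.65, all within the adequate range.

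Cyp4a3, which omega-hydroxylates fatty acids in liver and kidney, had 5.10, 5.56, 6.24, 6.70 and 6.41 in deficient livers, against 5.88, 5.80, 6.00, 6.11, 4.95 and 5.41 in adequate livers. Deficient replicates 3, 4 and 5 exceeded every adequate liver and replicates 1 and 2 did not. The difference was 0.37 ± 0.23 (SE, 95% interval -0.11 to 0.84, limma adjusted p = 0.542). After quantile normalization it was 0.65 with an adjusted p of 0.0281, the only member called there. With that normalization the differences of Cyp4a1 (-0.32, adjusted p = 0.503) and Cyp4f4 (-0.23, adjusted p = 0.493) were smaller in size than as deposited. Between marginal and deficient livers it gave Cyp4a3 -0.72 (adjusted p = 0.00726). As deposited, the shared Cyp4a3 and Cyp4a2 probe set gave 0.33 ± 0.26 between deficient and adequate livers (SE, adjusted p = 0.642). It ranged from 5.88 to 7.27 in deficient and 5.62 to 6.71 in adequate livers. Cyp4a8 ranged from -2.06 to 1.07 in deficient and from -2.72 to 0.10 in adequate livers, a difference of 0.65 ± 0.69 (SE, adjusted p = 0.752). Its second probe set had the opposite sign, at -0.31 ± 0.93 (SE, adjusted p = 0.929).

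Of the Cyp4f genes, Cyp4f4 had 3.63, 3.64, 4.42, 4.71 and 4.46 in deficient livers, against 4.85, 4.76, 4.75, 4.56, 4.80 and 4.41 in adequate livers. Deficient replicates 1 and 2 stood below all other diet arrays, and the other 3 deficient livers lay within the adequate range. The difference was -0.49 ± 0.18 (SE, 95% interval -0.87 to -0.11, limma adjusted p = 0.242). Cyp4f1, a liver hydroxylase of leukotrienes and fatty acids, had 6.54, 6.63, 7.42, 7.61 and 7.52 in deficient livers, against 7.14, 7.21, 7.32, 7.06, 7.47 and 7.46 in adequate livers. The same 2 deficient livers were again the lowest, and the difference was -0.04 ± 0.21 (SE, 95% interval -0.47 to 0.39, adjusted p = 0.96).

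Cyp4v3, whose human counterpart is mutated in Bietti crystalline corneoretinal dystrophy, had 4.22, 4.84, 5.31, 5.42 and 5.19 in deficient livers, against 5.49, 5.30, 5.47, 5.55, 5.24 and 4.90 in adequate livers. The difference was -0.28 ± 0.20 (SE, limma adjusted p = 0.583), and with the second probe set -0.99 ± 0.35 (adjusted p = 0.213). Marginal livers had 4.98 to 5.74 and differed from deficient livers by 0.42 ± 0.19 (adjusted p = 0.274). On the second Cyp4v3 probe set that difference was 1.22 ± 0.34 (adjusted p = 0.056). Cyp4b1 had 0.44 to 2.12 in deficient and 1.57 to 2.03 in adequate livers, a difference of -0.30 ± 0.24 (adjusted p = 0.655).

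The deficient and adequate livers were spread over both runs of identifiers, so the difference was also taken within each. For Cyp4a3 the first run gave 0.94 and the second -0.20. For Cyp4f4 the first run gave -0.05 and the second -0.91. The first run minus the second gave 1.14 ± 0.44 for Cyp4a3 (SE, limma adjusted p = 0.363) and 0.86 ± 0.34 for Cyp4f4 (adjusted p = 0.368). No member was called (0 of 7, with 0.0435% of all probe sets called), at an unadjusted p of 0.0147 for Cyp4a3 and 0.0155 for Cyp4f4. In all 7 members the difference was higher in the first run, as the plot of the change on the deficient diet by run shows. Of the second probe sets, that of Cyp4a8 had -0.90 for the first run minus the second and that of Cyp4v3 1.03. The share of all probe sets with a higher difference in the first run was not counted. Deficient replicates 1 and 2, which stood apart, were both in the second run, and replicate 5 was in the first. Without the 4 arrays that stood apart the difference was -0.05 for Cyp4a1, -0.11 for Cyp4f4 and 0.64 for Cyp4a3, none called. Without deficient replicate 4, Cyp4a1 (-0.84, adjusted p = 0.032) and Cyp4f4 (-0.65, adjusted p = 0.0367) were called.

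**Figure D2:**
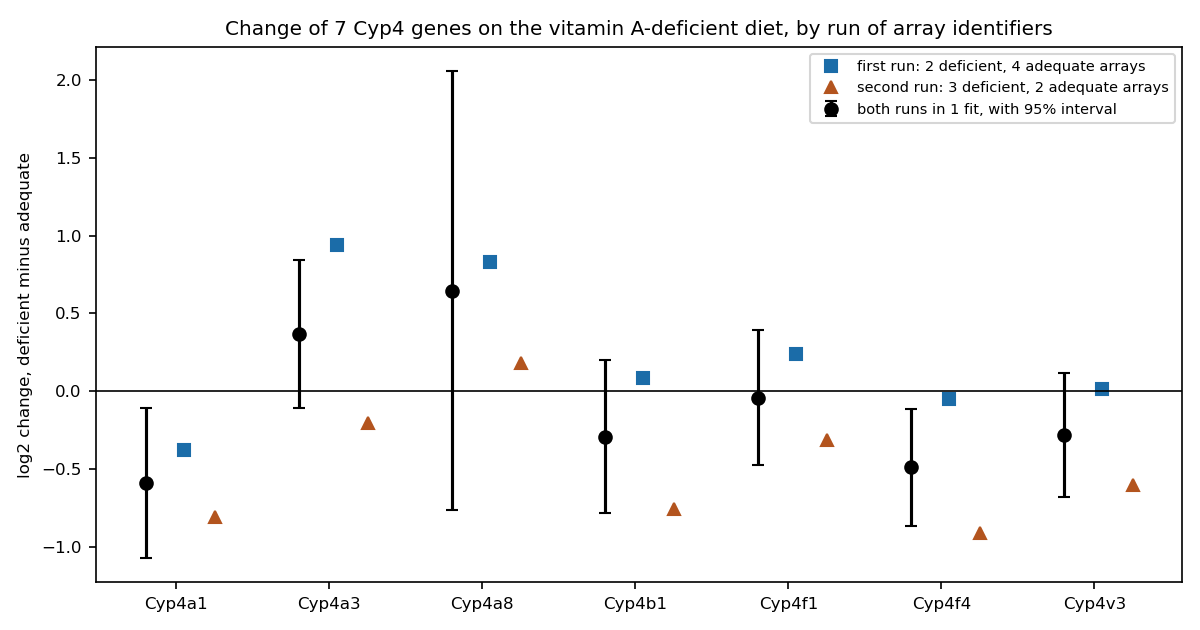
Difference between deficient and adequate livers in log2 signal for the 7 Cyp4 genes (vertical axis), fitted over both runs of array identifiers with its 95% interval (black) and taken within the first run (blue squares) and the second run (orange triangles). Cyp4a3 lies at 0.94 for the first run and at -0.20 for the second, and the blue point is above the orange one for each gene.

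The members varied together across the diet arrays, as did strong signals in general, which are set beside them below. After the fitted group and run means were subtracted from the 20 arrays, 18 of 21 pairs of members had a positive Pearson correlation, from -0.426 to 0.797. The highest was between Cyp4a3 and Cyp4v3 (Pearson r = 0.797, Spearman rho = 0.833, permutation p = 9e-05 and 3e-05, adjusted 0.00126 and 0.00063, n = 20), with r = 0.78 without the 2 arrays farthest from the median of Cyp4a3. It was 0.674 over the 12 arrays of run 1 and 0.909 over the 8 of run 2. Cyp4f1 and Cyp4f4 had r = 0.761 and rho = 0.701 (permutation p = 0.00012 and 0.00081, adjusted 0.00126 and 0.00567), and r = 0.609 without the 2 arrays farthest from the median of Cyp4f1. The neighbours Cyp4a1 and Cyp4a3 had r = 0.733 and rho = 0.669 (permutation p = 0.00018 and 0.00163, adjusted 0.00126 and 0.00856), and r = 0.589 without 2 arrays. Adjusted over the 21 pairs, 10 passed by Pearson and 9 by Spearman. The shares of all probe set pairs that are positive or pass were not counted. The permutations treat the 20 arrays as exchangeable, although subtracting the means leaves 15 degrees of freedom, so these p-values may be too small. Within the first run (12 arrays) 0 of 21 passed and within the second (8 arrays) 13 did. Without deficient replicate 1 alone 3 passed, and without the 4 arrays that stood apart 1 did.

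Other strong signals also varied together. The 5 members with a mean log2 signal above 4 made 10 pairs with a median r of 0.609, against 0.492 over all pairs of the 1811 probe sets above 4. In the first run these medians were 0.393 and 0.362, and in the second 0.874 and 0.708. The excess of the members over other strong probe sets was not tested.

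After RA, 3 Cyp4 genes were lower at 16 h than with vehicle. They were Cyp4f1, by 2.04-fold, Cyp4v3, by 1.94-fold, and Cyp4a3, by 1.94-fold, while Cyp4a1, Cyp4a8, Cyp4b1 and Cyp4f4 were not called. Lower calls were common among strong signals in that comparison. Of 28869 probe sets 6.11% were called, 5.89% as lower and 0.222% as higher, and of the 1808 with a mean log2 signal above 4 in the time course 28.4% were called lower. The members' 3 of 7, all lower, stands beside these shares. The median change was -0.955 over the 7 members, -0.488 over all named genes, -0.392 over all probe sets and -0.56 over those above 4.

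Cyp4f1 had 6.41, 6.95 and 6.92 at 16 h, against 7.53, 7.96 and 7.87 with vehicle. Every 16 h liver lay below every vehicle liver, and the change was -1.03 ± 0.23 (SE, 95% interval -1.51 to -0.55, limma adjusted p = 0.011). Group means moved in steps, 7.79 ± 0.22 with vehicle, 7.92 ± 0.25 at 3 h, 7.49 ± 0.25 at 6 h, 7.36 ± 0.41 at 10 h and 6.76 ± 0.30 at 16 h (SD, n = 3, 3, 3, 4 and 3). No step between neighbouring times was called, and 16 h against 10 h gave -0.60 ± 0.22 (SE, adjusted p = 0.184). Relative to the median of all probe sets the 16 h change was -0.64.

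Cyp4v3 had 4.23, 4.09 and 5.23 at 16 h, against 5.07, 5.79 and 5.58 with vehicle. The groups overlap, since 16 h replicate 3 lay above vehicle replicate 1, and the change was -0.96 ± 0.25 (SE, 95% interval -1.47 to -0.45, limma adjusted p = 0.0211). The second Cyp4v3 probe set had -1.88, -3.85 and 1.37 at 16 h, against 0.96, 1.56 and 1.78 with vehicle, a change of -2.89 ± 0.78 (adjusted p = 0.0259). On both probe sets the low values were those of 16 h replicates 1 and 2. Group means were 5.48 ± 0.37 with vehicle, 5.72 ± 0.06 at 3 h, 5.36 ± 0.29 at 6 h, 5.33 ± 0.17 at 10 h and 4.52 ± 0.62 at 16 h (SD). Against 10 h, the 16 h change was -0.81 ± 0.23 (SE, adjusted p = 0.0873).

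Cyp4a3 had 5.06, 4.11 and 5.35 at 16 h, against 5.79, 6.00 and 5.59 with vehicle. All 16 h livers lay below all vehicle livers, with replicate 2 lowest, and the change was -0.95 ± 0.29 (SE, 95% interval -1.55 to -0.36, limma adjusted p = 0.0449). The probe set shared with Cyp4a2 had 6.09, 5.04 and 6.38 at 16 h, against 6.82, 7.04 and 6.61 with vehicle, a change of -0.99 ± 0.29 (adjusted p = 0.0401). Its groups did not overlap either. Of all probe sets, 13.8% had every 16 h array below every vehicle array. Mean Cyp4a3 signals at 3 h, 6 h and 10 h were 5.74 ± 0.47, 5.66 ± 0.58 and 5.55 ± 0.30 (SD), within 0.24 of the vehicle mean of 5.79 ± 0.20.

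Cyp4a1 had 5.33, 4.91 and 5.71 at 16 h, against 5.01, 6.18 and 6.05 with vehicle, with overlapping groups and a change of -0.43 ± 0.28 (SE, 95% interval -0.997 to 0.14, limma adjusted p = 0.396). Cyp4f4 had 5.02, 4.62 and 5.04 at 16 h, against 4.81, 5.48 and 5.03 with vehicle, and its change was -0.21 ± 0.21 (95% interval -0.64 to 0.21, adjusted p = 0.609). Cyp4b1 changed by 0.22 ± 0.39 (adjusted p = 0.808). For Cyp4a8 the interval ran from -3.88 to 0.91 around -1.49, and its second probe set had the opposite sign, at 1.64 ± 1.09 (adjusted p = 0.414), with every 16 h array above every vehicle array, as in 3.99% of probe sets. Among the other Cyp4 genes on the array, Cyp4f6, the neighbour of Cyp4f1, had 3.32, 3.52 and 3.21 at 16 h, against 3.96, 4.25 and 4.05 with vehicle. It was lower by the test (-0.73 ± 0.22, adjusted p = 0.0439), and Cyp4f5 and Cyp4f17 were not called.

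No member was called at 3 h (0.0762% of all probe sets called), 6 h (0.201%) or 10 h (0.488%), or between neighbouring times (0.0208% between 6 h and 3 h, 0.135% between 10 h and 6 h, 0.807% between 16 h and 10 h). None of the 3, 6 and 10 h comparisons had a member at an unadjusted p under 0.05, and 16 h against 10 h had 5. The smallest p-value of a member against vehicle before 16 h was that of Cyp4f1 at 10 h (-0.43 ± 0.22, SE, 95% interval -0.88 to 0.02, adjusted p = 0.544). Next came Cyp4b1 at 3 h (0.64 ± 0.39, adjusted p = 1). The mean of all 4 times against vehicle called 0 of 7 (0.17% of all), and 1 member had an unadjusted p under 0.05. The F test over the 5 groups called 2 of 7, Cyp4f1 (adjusted p = 0.0134) and Cyp4v3 (adjusted p = 0.0214), where 4.79% of probe sets were called.

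Each of the 3 calls at 16 h was lost when certain single arrays were left out. With each of the 16 arrays left out in turn, Cyp4a3 lost its call in 11 cases, among them 6 arrays of 3, 6 or 10 h (highest adjusted p = 0.272), Cyp4v3 in 4 (highest 0.142) and Cyp4f1 in 3 (highest 0.0788). Without 16 h replicate 2 the Cyp4a3 change was -0.59. Without both 16 h arrays that stood apart, 1 array remained in the group, assumed to vary like the others, and 0 of 7 members were called. The change was then -0.87 for Cyp4f1 (adjusted p = 0.318), -0.45 for Cyp4a3 (0.777) and -0.25 for Cyp4v3 (0.859). After quantile normalization the median change of all probe sets was -0.0603. Cyp4f1 was then the only member called at 16 h (-0.78, adjusted p = 0.00855), and the F test called Cyp4f1 and Cyp4f4. At 16 h Cyp4a3 had -0.36 and Cyp4v3 -0.34, and the mean changes of Cyp4a1 (0.12) and Cyp4f4 (0.40) turned positive. Summed stellate cell and fibroblast markers had a log2 signal of 4.5 to 5.2 at 16 h, against 5.7 to 6.34 with vehicle, with 3 of 9 measured markers called lower. Kupffer cell and macrophage markers had 6.06 to 6.59 at 16 h, against 6.9 to 7.22 with vehicle (3 of 8 called lower). Endothelial markers had 5.86 to 6.34 at 16 h, against 6.13 to 6.88 with vehicle (1 of 8 called lower), and pancreatic acinar markers had 2.23 to 2.93 at 16 h, against 3.11 to 3.73 with vehicle (1 of 8 called lower). Hepatocyte markers had 11.8 to 12.2 at 16 h, against 11.5 to 11.9 with vehicle (1 of 10 called lower and 1 higher). Cholangiocyte markers had 2.78 to 3.59 at 16 h, against 2.91 to 3.73 with vehicle. Lymphocyte markers had 1.93 to 2.4, against 1.85 to 2.65, and neutrophil markers 2.04 to 2.6, against 1.58 to 2.75. No marker tested in the cholangiocyte, lymphocyte and neutrophil lists was called. Of all these marker lists, 1 acinar marker lay at the floor on a vehicle array, and none did on a 16 h array. Their part in the Cyp4 changes was not tested.

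**Figure D3:**
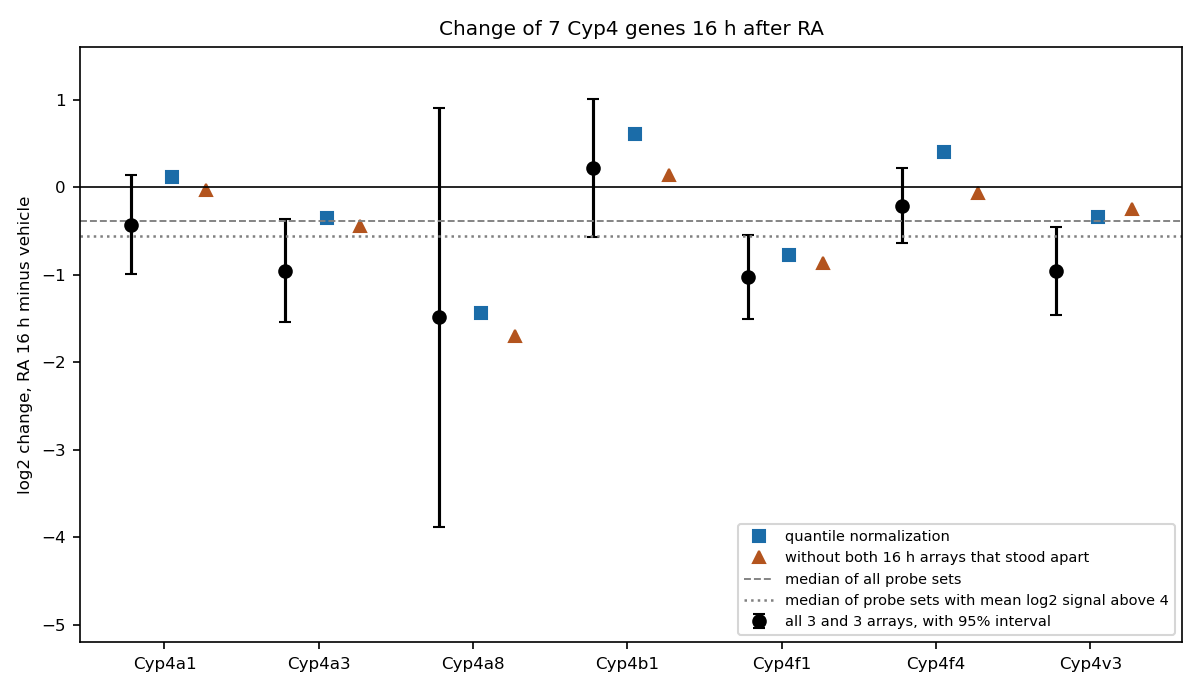
Change in log2 signal 16 h after RA against vehicle for the 7 Cyp4 genes, with 95% intervals (black), after quantile normalization (blue squares) and without both 16 h arrays that stood apart (orange triangles). The dashed and dotted grey lines are the median changes of all probe sets (-0.392) and of those with a mean log2 signal above 4 (-0.56). The lines belong to the fit over all arrays (black), in which Cyp4f1 (-1.03), Cyp4a8 (-1.49), Cyp4v3 (-0.96) and Cyp4a3 (-0.95) lie below both.

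Genes of the fatty acid pathways around the Cyp4 enzymes were lower at 16 h in part, in a comparison that called 5.89% of all probe sets and 28.4% of those with a mean log2 signal above 4 as lower. Of 20 measured genes of mitochondrial fatty acid oxidation 9 were called lower and 0 higher, with a median change of -0.708 against -0.488 over all named genes. They included the thioesterase Acot2 (-1.40 ± 0.28, SE, limma adjusted p = 0.00537), the trifunctional protein subunit Hadha (-1.11 ± 0.25), the dienoyl-CoA reductase Decr1 (-1.07 ± 0.23) and the carnitine palmitoyltransferase Cpt1a (-1.03 ± 0.29, adjusted p = 0.0309). Of 19 peroxisomal genes 3 were lower and 0 higher (median -0.379), the oxidase Acox2 (-1.16 ± 0.35), the fatty acid transporter Slc27a2 (-1.13 ± 0.21) and the bifunctional enzyme Ehhadh (-1.12 ± 0.25, adjusted p = 0.0103). Of 18 other PPARA targets 5 were lower and 0 higher (median -0.758), among them the pyruvate dehydrogenase kinase Pdk4 (-1.51 ± 0.22, adjusted p = 0.000389), the lipoprotein lipase inhibitor Angptl4 (-1.34 ± 0.35), Txnip (-1.29 ± 0.32) and Hsdl2 (-1.26 ± 0.21).

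Of 8 measured alcohol and aldehyde dehydrogenases of omega-oxidation, which act on the Cyp4 products, the aldehyde dehydrogenases Aldh1b1 (-1.49 ± 0.33) and Aldh2 (-0.85 ± 0.24) were lower and 0 higher (median -0.373). Of the 15 epoxygenase and leukotriene genes the P450 gene Cyp2c11 (-1.55 ± 0.46) and the prostaglandin reductase Ptgr1 (-0.87 ± 0.22) were lower. Por, the reductase that passes electrons to microsomal P450 enzymes, had a change of -0.04 ± 0.28 (limma adjusted p = 0.964). Of 9 tested PPAR and RXR receptors and partners only the corepressor Ncor1 was lower (-0.93 ± 0.28, adjusted p = 0.0435). Rxra had -1.41 ± 0.68 (adjusted p = 0.222). At earlier times the calls in these lists were few, although no Cyp4 gene was called there. Angptl4 was lower at 6 h (-2.25 ± 0.35, adjusted p = 0.00116), and Cpt1a (-1.43 ± 0.27, adjusted p = 0.0067), Me1 (-1.51 ± 0.35) and Pdk4 (-0.86 ± 0.20) were lower at 10 h. The lipid droplet gene Cidec was higher at 3 h (1.38 ± 0.28, adjusted p = 0.0411).

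In the diet experiment these lists held few calls between deficient and adequate livers. The peroxisomal carnitine octanoyltransferase Crot was lower in deficient livers (-1.08 ± 0.25, SE, limma adjusted p = 0.024) and higher in supplemented than in deficient livers (1.72 ± 0.36, adjusted p = 0.0166). The malic enzyme gene Me1 was lower in deficient than in adequate livers (-1.34 ± 0.30, adjusted p = 0.0146). The other 18 peroxisomal and 18 PPARA target genes measured, and all 20 mitochondrial ones, were not called between deficient and adequate livers. The enoyl-CoA isomerase Eci1 was lower in marginal (-0.79 ± 0.20, adjusted p = 0.0292) and supplemented (-1.31 ± 0.29, adjusted p = 0.0273) than in deficient livers. Ech1, of the other PPARA targets, was lower in marginal than in deficient livers (-0.72 ± 0.18, adjusted p = 0.0321). Between deficient and adequate livers Ppara had 1.82 ± 0.81 (adjusted p = 0.337), Cpt1a 0.94 ± 0.30 (adjusted p = 0.156) and Ehhadh 0.28 ± 0.18 (adjusted p = 0.557). Ppara was a weak signal, from -4.90 to 0.48 on the arrays of the diet experiment and the time course. It was too weak to be tested in the time course.

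No Cyp4 gene passed the test within 90 min of intravenous RA. The test called 0 of 7 members at 30 min (0.0879% of 22763 probe sets called), 60 min (0.387%) and 90 min (0.505%) against vehicle, and 0 of 7 in the F test (0.549%). It also called 0 of 7 in the mean of all RA times against vehicle (0.29%), at 60 min against 30 min (0.0615%) and at 90 min against 60 min (0.0966%). At an unadjusted p under 0.05 there were 0, 3 and 0 members in the 3 comparisons with vehicle. There was 1 in the mean of all RA times, 0 at 60 min against 30 min and 3 at 90 min against 60 min. With 2 vehicle arrays, differences of this size were measured with standard errors of 0.14 to 0.20 for the 6 members other than Cyp4a8.

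Cyp4a1 had 7.26, 7.58 and 7.53 at 30 min, 7.28, 7.33 and 7.42 at 60 min, and 7.69, 7.35 and 7.51 at 90 min, and both vehicle livers had 7.67. All RA livers but 1, at 90 min, were below the vehicle livers. At 60 min the difference was -0.32 ± 0.14 (SE, 95% interval -0.62 to -0.03, limma adjusted p = 0.439). Cyp4a3 had 6.66, 6.54 and 6.54 at 30 min, 6.49, 6.33 and 6.72 at 60 min, and 6.76, 6.30 and 6.81 at 90 min, against 7.10 and 6.72 with vehicle. Its difference at 60 min was -0.40 ± 0.17 (95% interval -0.76 to -0.03, adjusted p = 0.448). Cyp4f4 had 4.43, 4.10 and 4.49 at 60 min, against 4.56 and 5.04 with vehicle. Its difference was -0.46 ± 0.19 (adjusted p = 0.431). At 90 min Cyp4f1 had -0.24 ± 0.15 (adjusted p = 0.597), Cyp4v3 -0.34 ± 0.20 (0.589), Cyp4b1 0.21 ± 0.20 (0.766) and Cyp4a8 0.84 ± 0.98 (0.813). Cyp4v3 had 4.26 to 4.73 at 90 min, against 4.78 to 5.00 with vehicle. Cyp4a8, a weak signal, had -2.40 to 0.18 at 30 min, -2.04 to -1.25 at 60 min and -2.21 to -1.59 at 90 min. Both vehicle livers were lower (-3.15 and -2.48). The signal filter asked for 2 or more arrays, and only the 2 higher livers at 30 min (-0.45 and 0.18) passed it. Cyp4a8 was therefore tested here only through RA livers, and its order against vehicle cannot be read apart from that filter. Its second probe set had -2.67 to -0.33 at 30 min and -4.31 to -1.19 at 60 min, overlapping the vehicle livers (-3.73 and -2.34). At 90 min that probe set had -1.45 to -0.50, above both. All times use the same vehicle livers, and the share of all probe sets that separate from them in this way was not counted.

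Around the members, Pdk4 (-2.39 ± 0.31, SE, limma adjusted p = 0.00441), the cytosolic thioesterase Acot1 (-2.85 ± 0.50, adjusted p = 0.0233) and Ehhadh (-1.91 ± 0.38, adjusted p = 0.0472) were lower at 60 min than with vehicle. They were the calls among 18 other PPARA targets and 19 peroxisomal genes, with 0 of 20 mitochondrial genes called. The fatty acid transporter Cd36 was lower at 90 min (-0.87 ± 0.18, adjusted p = 0.0464), and so were Cyb5b, the outer mitochondrial cytochrome b5 (-0.87 ± 0.14, adjusted p = 0.0112), and the alcohol dehydrogenase Adh4 (-1.32 ± 0.27, adjusted p = 0.0483). Aldh1b1 was higher at 60 min (1.77 ± 0.26, adjusted p = 0.00794), and the P450 gene Cyp2j4 was lower (-0.84 ± 0.16, adjusted p = 0.0417).

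Between experiments, Cyp4a1 stood apart. Cyp4a1 had 7.26 to 7.69 (median 7.51) on the 11 arrays of the intravenous experiment, against 4.64 to 6.33 (median 5.70) on the 36 other arrays, with no overlap and a difference of means of 1.85. Of 22300 probe sets tested in all 3 experiments, 0.188% were higher on all intravenous arrays than on all others and 0.135% lower, and Cyp4a1 was 1 of 7 members to be so. Cyp4f1 went the other way, with 5.85 to 6.43 on the intravenous arrays, against 6.41 to 8.21 on the others, and a difference of means of -1.18. Its ranges met only through 16 h replicate 1 of the time course, at 6.41. Cyp4a3 (6.30 to 7.10, against 4.11 to 6.70) and Cyp4b1 (1.97 to 2.74, against 0.44 to 2.33) had higher means by 0.99 and 0.70, with overlap. For Cyp4v3, Cyp4f4 and Cyp4a8 the difference of means was -0.52, -0.21 and -0.69, with overlap.

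The listed genes that, like Cyp4a1, were higher on every intravenous array were 8 in all. They were 3 of 20 mitochondrial genes (Hadhb, Eci1 and Acot2), 1 of 19 peroxisomal genes (Acot4), 3 of 18 other PPARA targets (Acot1, Vnn1 and Ech1) and Cyp2j4 among 13 epoxygenase and leukotriene genes, and none of the lists had a gene lower on every one. Vnn1, a pantetheinase, had 4.30 to 5.53 on the intravenous arrays, against -0.84 to 2.58 on the others. Ehhadh (5.38 to 7.84, against 3.93 to 6.18) and Cpt1a (7.09 to 7.57, against 4.07 to 7.22) overlapped, as did Ppara and Rxra. No test was made, because stock diet, food removal, isoflurane, dosing and database identifiers all differ between the experiments and cannot be told apart.

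**Figure D4:**
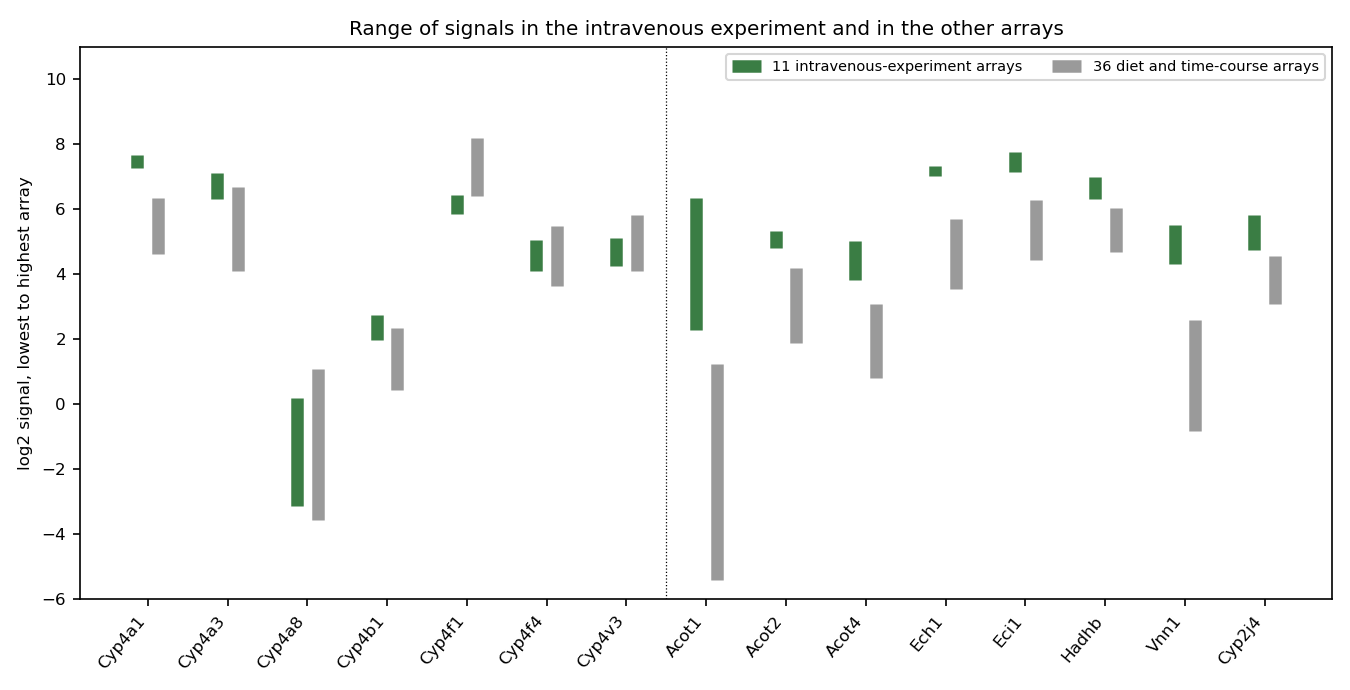
Lowest to highest log2 signal of each gene on the 11 arrays of the intravenous experiment (green) and on the 36 arrays of the other experiments (grey), for 7 Cyp4 genes (left of the dotted line) and the 8 listed genes whose ranges do not overlap (right). The green and grey bars are separate for Cyp4a1 alone among the Cyp4 genes, at 7.26 to 7.69 and 4.64 to 6.33.

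The genes most like the members called at 16 h were sought over the 13 group means, each taken minus the mean of its experiment, among 11645 genes tested throughout. These likenesses are descriptions, and all genes share the arrays that stood apart. The 16 h mean is 1 of the 13, so the 16 h calls given for these genes are not a separate result. Cyp4f1 was most like Dnpep (Pearson r = 0.979), Rpn2 (0.979) and Ssr1 (0.978), all 3 also lower at 16 h by the test. Cyp4v3 was most like Dpys (0.985), Abtb1 and Rab22a (0.961 each), of which Dpys was called lower at 16 h (-1.20, limma adjusted p = 0.01). Cyp4a3 was most like Ecd (0.97), Hadhb (0.959) and Gng12 (0.954), of which Hadhb was called lower (-0.77, adjusted p = 0.0297).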

How the data were processed

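The authors deposited log2 signals of 31099 probe sets. The submitters' processing notes name GCOS as the software, and its version is not given in the sources used here, nor is a genome build for the probe sets. The median of every array is 0, and the weakest probe sets of an array have a common floor value. The analysis had been designed for linear intensities, so the logarithm and offset it foresaw were not needed. Of the probe sets 20832 match 1 gene, 436 several and 9831 were unnamed, and 57 control probe sets were left out. The number of arrays limits the precision.

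A probe set was tested where its value exceeded percentile 40 of the array on 2 or more arrays, separately for each experiment (27595, 28869 and 22763 probe sets), with limma 3.58.1 in R 4.3.3, using lmFit on group means, with the run as a covariate in the diet experiment, and eBayes with an intensity trend. The residual degrees of freedom were 15 (diet), 11 (time course) and 7 (intravenous), and those added by eBayes were 16.7, 18.4 and 7.29. A call is a Benjamini-Hochberg adjusted p under 0.05 over all tested probe sets. Errors of changes are limma standard errors and errors of means are SDs. Correlations used 100000 permutations (two-sided). The limma fits were tested on simulated data.

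The members and gene lists were chosen with earlier results of these data known. Named were all members, called genes whose symbol starts with Cyp4, up to 4 called genes per list and contrast, Ppara, Rxra, Cpt1a, Ehhadh, Por and Cyp26a1 where a list is described, and the 3 genes most like each called member. Listed genes that did not overlap between experiments were named after their values were seen. Some listed genes were not analysed here. Alternatives were quantile normalization, no filter, no trend, arrayWeights, an offset at the 20th percentile, the replicate block, the mean over a gene's probe sets, other treatments of the run, and each array left out. Fits without arrays that stood apart were added after seeing the data.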

Additional observations from a re-analysis of the deposited data

How the results depend on the processing

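Under quantile normalization 1 member was called, in place of 0, between deficient and adequate livers, between marginal and deficient livers and in the diet F test, each time Cyp4a3. In the 16 h comparison 1 member was called with quantile normalization, in place of 3, and 0 without an intensity trend, without both 16 h arrays that stood apart, and without these and vehicle replicate 1. Over all probe sets that comparison called 1765 as reported, 323 with quantile normalization (111 higher and 212 lower, against 64 and 1701) and 40 without a trend. The time-course F test called 2 members as reported, 0 without a trend, 1 with the mean over probe sets, 0 without both 16 h arrays and 1 without the 3 arrays. With each array left out in turn, the members called ranged from 0 to 3 at 16 h (0 without vehicle replicate 2, vehicle replicate 3 or 16 h replicate 1, and 1 without 16 h replicate 2), from 0 to 3 in that F test, from 0 to 2 at 16 h against 10 h (2 without 16 h replicate 3) and from 0 to 2 between deficient and adequate livers (2 without deficient replicate 4). The called pairs of members numbered 10 as reported, 0 in the first run alone, 1 without the 4 diet arrays that stood apart, and 3 to 14 with each array left out. Same-numbered arrays did not deviate together (0 of 22, 30 and 15 pairs with a correlation over 0.1). This check showed no pairing by number, and it cannot exclude one. With the replicate number as a block, the 16 h comparison called the same number of members, 3 (Cyp4f1 adjusted p = 0.0197), and no other count of called members changed. Beyond the settings above, no other alternative tried changed a count of called members by over 1.5 times. The cause of these differences was not tested.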
